A study of Mus musculus with 27 samples.

Results

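The genes described here are the small nucleolar RNAs (snoRNAs), the small Cajal body RNAs (scaRNAs) and the host genes that carry them, in mouse embryonic stem cells exposed to hydrogen peroxide (H2O2). They were chosen by name, as Snora, Snord, Scarna or Snhg followed by a number, or Gas5, and by a level of 1 FPKM or more in at least 3 of the 27 libraries. FPKM divides the fragments of a gene by its transcript length in kilobases and by library size, and so is a level per length. By name, 153 of the 38352 genes in the tables qualified, and 61 of these also passed the level. They comprise 15 host genes and 46 small RNAs, of which 30 are of the box C/D class, 14 of the box H/ACA class and 2 are scaRNAs. The same level filter left 13614 genes in all. The lowest small RNAs kept, Snord11 and Scarna8, reached 1 FPKM in 4 libraries, whereas Snhg9 and Snora20 reached it in 2 and were left out, as were Snhg14, Snora15, Snora30, Snora73b, Snord71, Snord8 and Scarna10, which reached it in 1. The level filter alone means that a gene low at most times can belong only through the times at which it was high. Of the members, 13 of 15 host genes and 20 of 46 small RNAs were at 1 FPKM or more in all 27 libraries, and 6 small RNAs were listed at 0 in at least 1 library.

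Wild-type E14Tg2a cells, a mouse embryonic stem cell line, were grown on gelatin in serum with leukemia inhibitory factor and the 2i inhibitor supplement. Treated cells received 500 µM H2O2 for 30 min, a dose given by the treatment protocol while the series description writes the same figure in mM, and their medium was then exchanged for spent medium of untreated cells. There were 9 groups of 3 biological replicates each: treated cells at 0.5, 2, 4, 6, 8, 10 and 24 h, and untreated cells taken at 0 h or after 24 h. The control of treated cells to 10 h was the untreated 0 h group, which does not match them in age, and that of treated cells at 24 h was the untreated 24 h group. No group received fresh spent medium without peroxide, so from 2 h on peroxide and the medium exchange cannot be told apart. RNA was poly(A)-selected, converted to stranded libraries and sequenced in pairs, and p-values below measure the spread between these libraries. In bulk RNA, fewer cells of a kind and less RNA per cell cannot be told apart.

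Most snoRNAs guide chemical modification of ribosomal RNA. Box C/D RNAs bring the methyltransferase fibrillarin to sites of 2′-O-methylation, box H/ACA RNAs bring dyskerin to sites of pseudouridylation, and scaRNAs do the same for spliceosomal RNAs in Cajal bodies. In mammals nearly all are cut out of introns, many of them in genes for ribosomal proteins and translation factors, while the spliced RNA of dedicated host genes such as Gas5 and the Snhg genes is often short-lived and degraded by nonsense-mediated decay. A mature snoRNA carries no poly(A) tail. Values for small RNAs in poly(A)-selected libraries may therefore hold precursor, polyadenylated or host intron fragments, and which of these was counted was not tested.

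Small RNAs with large called changes are shown because the results below turn on them, with Snora2b, the neighbour of Snora34 in its host, which was not called, and Snord34, the small RNA with the highest mean. Sequences are the GENCODE M21 transcript sequences, read 5′ to 3′ on the gene's own strand, and each had the length of the gene's GRCm38 span. Capitals mark the C box core (TGATGA, within the first 20 bases) and the D box (CTGA, within the last 20 bases) of box C/D RNAs. In box H/ACA RNAs they mark the H box (ANANNA, near the middle) and the terminal ACA. Snora34 (chr15:98519716-98519853, minus strand) and Snora2b (chr15:98526346-98526482, minus strand) lie in 1 host gene, Kansl2, and share a run of 19 bases before the H box. Aligned over 147 columns, the pair was identical at 68.0% of them.
Snora34: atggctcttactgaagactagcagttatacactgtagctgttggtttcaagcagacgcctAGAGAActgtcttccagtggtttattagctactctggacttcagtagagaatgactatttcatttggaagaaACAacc
Snora2b: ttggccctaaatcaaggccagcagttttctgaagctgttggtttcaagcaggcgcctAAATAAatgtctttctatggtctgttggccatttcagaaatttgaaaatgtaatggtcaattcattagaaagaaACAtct
Snord91a: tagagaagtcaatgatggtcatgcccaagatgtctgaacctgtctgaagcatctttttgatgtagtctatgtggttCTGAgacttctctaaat
Snord89: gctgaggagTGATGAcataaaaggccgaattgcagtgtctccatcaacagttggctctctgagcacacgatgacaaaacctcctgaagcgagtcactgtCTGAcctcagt
Snord37: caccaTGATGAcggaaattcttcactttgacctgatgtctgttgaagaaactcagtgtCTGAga
Snord87: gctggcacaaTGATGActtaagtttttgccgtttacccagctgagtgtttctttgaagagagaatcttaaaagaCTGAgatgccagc
Snord49a: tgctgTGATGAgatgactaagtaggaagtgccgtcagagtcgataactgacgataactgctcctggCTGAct
Snord34: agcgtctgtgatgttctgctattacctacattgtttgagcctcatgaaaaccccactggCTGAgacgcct
Of the 30 box C/D members, 19 (63.3%) held the C box core and 29 (96.7%) the D box in these windows, against 21.3% and 34.8% of all 1558 annotated snoRNA and scaRNA transcripts, which include box H/ACA RNAs. All 14 box H/ACA members held the terminal ACA and 13 the H box, against 44.3% and 77.5% of those transcripts. The motifs are short, were read on the gene's strand only and may overlap others, so a match describes the letters and not a working box.

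Few of the small RNAs measured lie in the 15 host genes chosen by name and level. Of the 46 small RNAs, 39 lay wholly in an intron of an annotated gene on the same strand and 2 overlapped an exon (Snord42b in Rpl23a and Snora2b in Kansl2). For the other 5 no host was found (Snord104, Snora57, Snora17 and the 2 overlapping Snora43 entries). The search took only genes of the tables that wholly contain the small RNA on its strand, so a host annotated otherwise would be missed. The 41 with a host lay in 34 genes, and 14 of the 41 were in ribosomal protein genes. The 15 host genes so chosen contained 42 different genes of the tables annotated as snoRNA or scaRNA, of which 3 reached the level filter, namely Snord87 in Snhg6, Snora73a in Snhg3 and Scarna13 in Snhg10. Snora73a also lies in an intron of Rcc1, which had the higher mean (41.5 FPKM, against 9.08 for Snhg3). Rcc1 was therefore taken as its host wherever host and small RNA are compared below. None of the 8 small RNAs of Snhg1 averaged above 0.0243 FPKM, against a mean of 38.8 FPKM for Snhg1 itself, and none of the 10 of Gas5 averaged above 0.135 FPKM, against 20.2 FPKM. Across the 41 pairs the small RNA stood at a median of 2.12% of its host's mean FPKM. The lowest was Snora62 at 0.160% of Rpsa, and 2 stood above their host, Snord89 at 186% of the non-coding gene Gm15832 and Snora78 at 436% of Snhg9. Among the others, Snord87 was at 28.9% of Snhg6, Snora34 at 20.2% of Kansl2 and Snord49a at 10.5% of 2410006H16Rik. That non-coding gene, which the name rule does not cover, also carries Snord49b and Snord65.

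Libraries summed to between 294485 and 395760 FPKM, the number of reads is not given, and 11516 to 12607 genes were at 1 FPKM or more. All 10 stem cell markers were at 1 FPKM or more in every library. Treated here as standing apart were 4 libraries, namely H2O2 2 h replicate 1, H2O2 8 h replicate 3, H2O2 10 h replicate 3 and untreated 0 h replicate 3. Relative to the mean of untreated 0 h replicates 1 and 2, their log2(FPKM + 1) rose with GC content by 0.321, 0.192, 0.203 and 0.357 per 10 percentage points, and their median ribosomal protein gene was higher by 0.80, 0.46, 0.36 and 0.90. The whole H2O2 4 h group rose with GC content too, by 0.130 to 0.205, and the whole H2O2 6 h group by 0.102 to 0.111. So did untreated 24 h replicates 1 and 3, by 0.178 and 0.110. Their median ribosomal protein gene was higher by 0.28 to 0.43 at 4 h, by 0.21 to 0.27 at 6 h and by 0.39 and 0.44 in these untreated 24 h libraries. The 2 measures thus do not set the 4 libraries off from all others. Fits without the 4 keep these shifts in the H2O2 4 h and 6 h groups and the 24 h control. Since untreated 0 h replicate 3 belongs to the control of the comparisons to 10 h, results were also computed without the 4 libraries. That control library lay above both other replicates for 17 of 46 small RNAs and 9 of 15 host genes and below both for 24 and 5. A list of 25 hepatocyte genes summed to 62.4 to 89.9 FPKM in the 3 libraries of H2O2 0.5 h, 62.1 in H2O2 6 h replicate 3, 83.4 and 71.2 in H2O2 8 h replicates 1 and 2, and 57.8 to 79.2 in the 3 libraries of untreated 24 h, with 14 to 17 of 25 at 1 FPKM or more in each. It summed to 3.80 to 11.2 FPKM in all others, with 1 to 3 of 25 at that level and from 1 to 15 listed at 0. The 8 astrocyte genes summed to 8.27 to 24.4 FPKM and the 8 fibroblast genes to 1.60 to 3.17. The part of these differences in the results below was not tested beyond the fits without libraries.

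A change is the difference of group means of log2(FPKM + 1), treated minus untreated, so that 1 is a doubling for a well-expressed gene and less than that for a low one. Its standard error (SE) comes from a limma model over all 27 libraries, and a gene is called at a Benjamini-Hochberg adjusted p below 0.05 over all 13614 genes. Host genes moved in both directions from 4 h to 10 h. At 0.5 h, 0 host genes were higher and 1 was lower and no small RNA was called, against 0.0147% of all genes higher and 0.0661% lower (0.0808% called). An unadjusted limma p below 0.05 was found for 7 host genes and 14 small RNAs, against 1352 of all 13614 genes. At 2 h, 0 host genes were higher and 1 lower, and 1 small RNA was higher and 2 lower, against 0.499% and 0.566% of all genes (1.07% called). At 4 h the host genes divided into 3 higher and 3 lower and the small RNAs into 5 higher and 4 lower, against 14.2% and 12.1% (26.3% called). At 6 h, 4 host genes were higher and 1 lower, and 8 small RNAs were higher and 2 lower, against 22.3% and 20% (42.3% called). At 8 h, 2 host genes were higher and 3 lower, and 3 small RNAs were higher and 6 lower, against 29.2% and 11.6% (40.7% called). At 10 h, 6 host genes were higher and 2 lower, and 4 small RNAs were higher and 2 lower, against 22.2% and 9.43% (31.7% called). At 24 h, 1 host gene was higher, 0 were lower and no small RNA was called, against 8.63% and 4.28% (12.9% called). An unadjusted limma p below 0.05 was found there for 2 host genes and 1 small RNA, against 4307 of all 13614 genes. From 4 h on the share of small RNAs called was thus below that of all genes, and that of host genes was above it at 4 h and 10 h and below it at 6, 8 and 24 h.

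**Figure D1:**
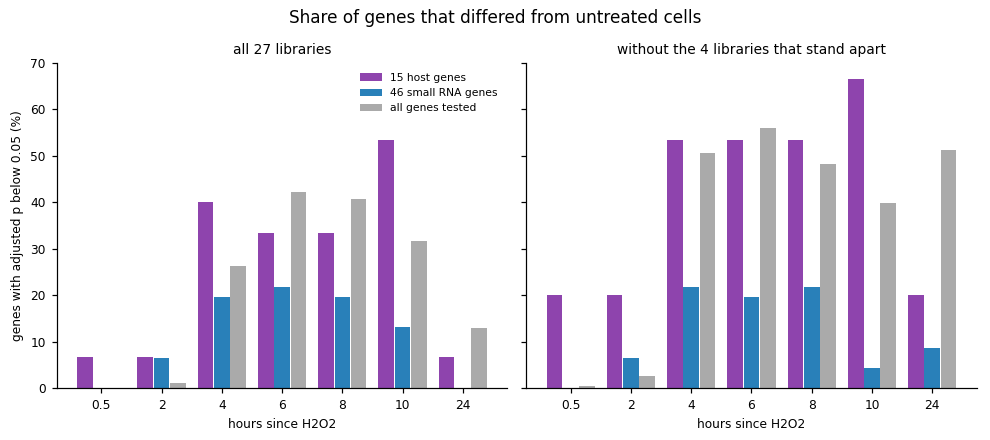
Share of genes called in either direction at adjusted p below 0.05 (percent, vertical axis) by time of the treated group (horizontal axis, h), for the 15 host genes, the 46 small RNAs and all genes tested, with all 27 libraries on the left and without the 4 that stand apart on the right. With all libraries the bar of the small RNAs is below that of all genes from 4 h on, and the bar of the host genes is highest at 10 h, with 6 higher and 2 lower of 15.

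The median change over the 15 host genes ran -0.27, -0.08, 0.05, 0.20, 0.04, 0.26 and -0.06 at 0.5, 2, 4, 6, 8, 10 and 24 h. Over the 46 small RNAs it ran -0.15, -0.10, 0.15, 0.11, -0.07, 0.07 and 0.07, and over all genes 0.05, 0.02, 0.01, 0.00, 0.11, 0.11 and 0.07. Both classes thus lay below the median of all genes at 0.5 h and 2 h and above it at 4 h and 6 h. The summed level of the 15 host genes was 141 ± 5.57 FPKM at 0.5 h and 214 ± 24.9 at 10 h, against 188 ± 21.5 in untreated cells at 0 h (SD, n = 3 each). That of the small RNAs was 150 ± 6.14 FPKM at 0.5 h, against 204 ± 31.5 in untreated cells at 0 h. Over the 7 treated comparisons, 13 of 15 host genes were called at least once, 8 as higher only, 4 as lower only and 1 (Snhg5) in both directions, and Gas5 and Snhg10 were not called. Of the small RNAs, 15 of 46 were called at least once, 9 as higher only and 6 as lower only. Small RNAs had the larger errors, with a median SE of 0.297 against 0.148 for host genes and 0.130 for all genes. Without the 4 libraries, 3 host genes were called at 0.5 h, 3 at 2 h, 8 at each of 4, 6 and 8 h and 10 at 10 h, and 0, 3, 10, 9, 10 and 2 small RNAs, against 0.345%, 2.51%, 50.6%, 56.1%, 48.3% and 39.8% of all genes. Of the calls to 10 h with all libraries, 24 of 26 for host genes and 23 of 37 for small RNAs were also made without the 4. With only the libraries of the 2 groups compared in each fit, 14 of 59 calls of members named by the rule held. These were Snhg17 at 4 h and 6 h, the second Snhg4 entry at 6 h, Snhg11 at 10 h and 24 h, Snora34 at 4, 6 and 8 h, Snord89 at 4 h and 6 h, Snord87 at 4 h and 8 h, Snord49a at 4 h and Snora62 at 8 h.

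**Figure D2:**
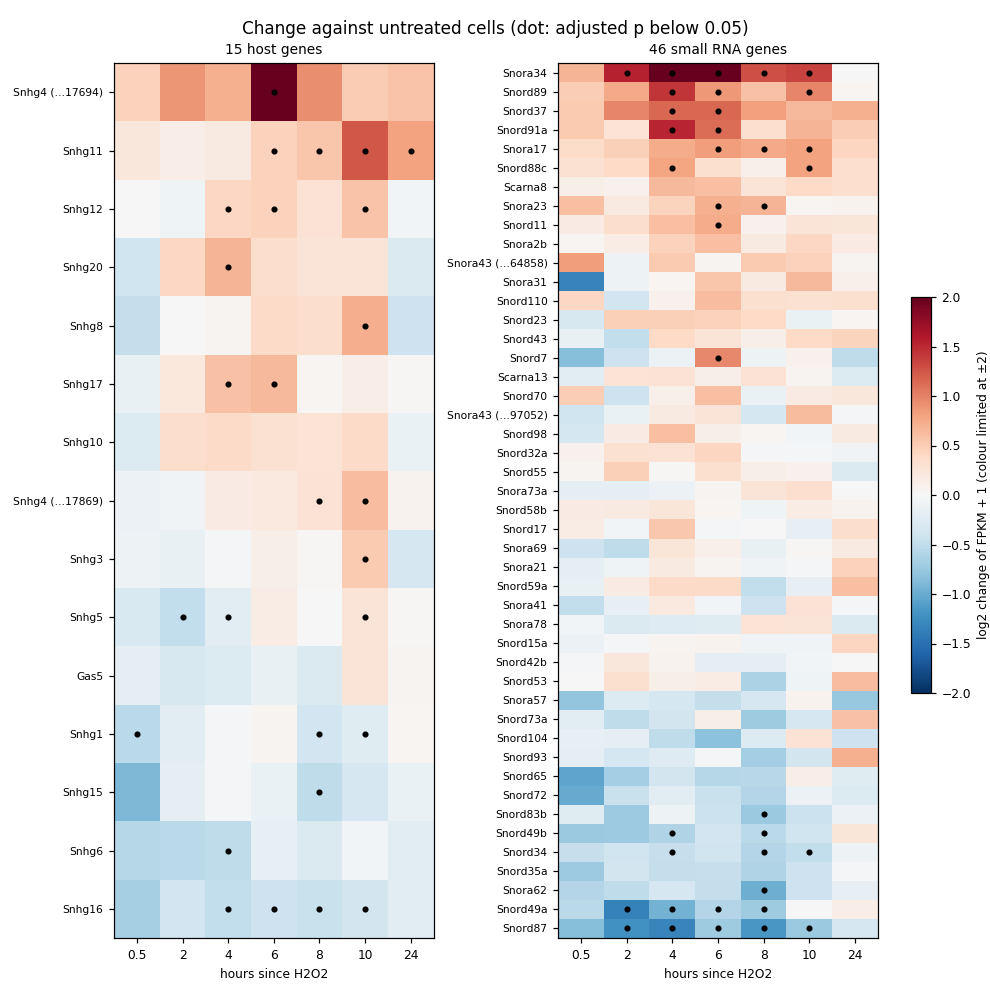
Change in log2(FPKM + 1) against untreated cells of each of the 15 host genes (left) and 46 small RNAs (right) by time of the treated group (columns, h), with colour for the change, limited at 2 in either direction, and a dot where the adjusted p is below 0.05. Of the called changes Snora34 has the largest rise, 2.75 at 4 h, and Snord49a and Snord87 the largest falls, -1.36 at 2 h and -1.32 at 4 h.

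Among host genes, Snhg17 and Snhg12 were higher in the middle of the course. Snhg17 (ENSMUSG00000085385, chr2:158353700-158361580, minus strand), in which 3 small RNA genes are annotated, stood at 6.53, 7.55 and 5.60 FPKM in untreated cells at 0 h. It was at 6.26, 5.93 and 5.28 FPKM at 0.5 h, 7.55, 7.53 and 7.88 at 2 h, 10.8, 10.2 and 9.90 at 4 h, 12.02, 10.1 and 10.5 at 6 h, and 7.002, 6.501 and 6.61 at 8 h. All 6 libraries of 4 h and 6 h lay above every untreated 0 h one, and those of 8 h lay inside the untreated range. The change was 0.59 at 4 h (SE 0.0873, limma adjusted p = 2.37e-05) and 0.65 at 6 h (adjusted p = 2.92e-06), and both calls held without any single library. Between neighbouring treated times, Snhg17 rose by 0.38 from 2 h to 4 h (limma adjusted p = 0.00265) and fell by 0.62 from 6 h to 8 h (limma adjusted p = 1.67e-05), where 20.1% and 24.1% of all genes were called.

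Snhg12 (ENSMUSG00000086290, chr4:132308623-132311024, plus strand) was at 19.1, 17.3 and 18.3 FPKM at 4 h, 20.3, 16.6 and 19.7 at 6 h, and 20.1, 18.4 and 23.0 at 10 h, against 10.6, 13.8 and 16.3 in untreated cells at 0 h. Each of these treated libraries was above all 3 untreated ones at 0 h. The change was 0.42, 0.46 and 0.58 (SE 0.120, limma adjusted p = 0.0118, 0.00358 and 0.000907), and the calls at 6 h and 10 h held without any single library, while that at 4 h ended without untreated 0 h replicate 1. All of these calls ended with only the libraries compared (limma adjusted p = 0.193, 0.113 and 0.137). Snhg12 carries box H/ACA RNAs such as Snora16a, Snora44 and Snora61 and the box C/D RNA Snord99. Snhg20 averaged 9.04 ± 0.859 FPKM at 4 h, against 5.46 ± 1.92 in untreated cells at 0 h (SD, n = 3 each), a change of 0.68 (limma adjusted p = 0.0064) that was not called without untreated 0 h replicate 1. It was already at 9.63, 6.56 and 6.27 FPKM at 2 h, against 4.32, 4.14 and 2.98 at 0.5 h, a step of 0.81 (limma adjusted p = 0.0237) in a comparison with 1.17% of all genes called. Snhg20 was also called at 6, 8 and 10 h without the 4 libraries.

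Snhg11 was the host gene with the largest late rise and the only one called at 24 h. It lies next to Snhg17 in the annotation, on the other strand (ENSMUSG00000044349, chr2:158375638-158386145, plus strand). Its libraries were at 2.49, 3.37 and 1.84 FPKM in the untreated 0 h group, 4.62, 3.14 and 3.89 at 6 h, 5.11, 4.00 and 3.53 at 8 h, and 8.09, 7.54 and 6.44 at 10 h. At 24 h they were at 3.96, 4.21 and 5.02 FPKM, against 1.86, 2.45 and 1.99 in untreated cells at 24 h. The 10 h and 24 h groups lay wholly above their controls, while 1 of 3 libraries at 6 h was inside the untreated range. The change was 0.47 at 6 h, 0.56 at 8 h, 1.25 at 10 h (SE 0.148, limma adjusted p = 2.03e-06) and 0.80 at 24 h (limma adjusted p = 0.00127). The calls from 8 h on held without any single library, although that at 8 h ended with only the libraries compared (limma adjusted p = 0.122), that at 6 h ended without H2O2 6 h replicate 1 or untreated 0 h replicate 3, and the step of 0.69 from 8 h to 10 h was called (limma adjusted p = 0.00806, 5.37% of all genes).

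Other host genes also reached their highest treated mean at 10 h, which held for 9 of 15, against 3 at 6 h, 2 at 4 h and 1 at 2 h. The Snhg4 entry ENSMUSG00000117869 was at 8.91, 7.88 and 8.76 FPKM at 10 h, against 5.46, 5.74 and 4.42 in untreated cells at 0 h, without overlap. Its change was 0.62 at 10 h (SE 0.0912, limma adjusted p = 2.57e-05), held without any single library, and 0.29 at 8 h, which was not called without the 4 libraries or without H2O2 8 h replicate 1 or untreated 0 h replicate 3 alone. The 10 h call ended with only the libraries compared (limma adjusted p = 0.0602). Snhg5 first fell and then rose: it was at 14.6, 13.0 and 13.95 FPKM at 2 h and at 24.0, 22.2 and 25.4 at 10 h, against 18.7, 20.8 and 20.1 in untreated cells at 0 h. The 2 h libraries were all below and the 10 h libraries all above the untreated ones, with changes of -0.49 (SE 0.0699, limma adjusted p = 0.000333) and 0.25 (limma adjusted p = 0.00845). At 4 h its change was -0.22, a call that ended without H2O2 4 h replicate 1 or 2 or untreated 0 h replicate 2, and from 4 h to 6 h it rose by 0.36 (limma adjusted p = 0.000874).

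Gas5, named for its rise in growth-arrested cells and host of box C/D snoRNAs, was not called against untreated cells at any time. It was at 27.5, 25.4 and 27.7 FPKM at 10 h and 20.9, 17.0 and 16.5 at 8 h, against 21.7, 29.1 and 17.5 in untreated cells at 0 h, where the spread covered both. From 8 h to 10 h it rose by 0.55 (SE 0.131, limma adjusted p = 0.0164), without overlap between these times. Without the 4 libraries it was called lower at 2, 4, 6 and 8 h, by -0.52, -0.43, -0.32 and -0.39, with the control then reduced to 2 libraries. Snhg8 and Snhg3 were called higher at 10 h, by 0.72 and 0.53 (limma adjusted p = 0.0127 and 0.0105). Both calls ended without H2O2 10 h replicate 3, and that of Snhg8 also without untreated 0 h replicate 1. H2O2 10 h replicate 3 read 28.4 FPKM for Snhg8 and 18.2 for Snhg3. The other 2 libraries of 10 h were at 16.4 and 19.6 FPKM for Snhg8, against 9.11, 10.9 and 18.5 in untreated cells at 0 h. With all 4 libraries left out Snhg8 was called higher at 4, 6, 8 and 10 h, by 0.33, 0.66, 0.56 and 0.79.

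**Figure D3:**
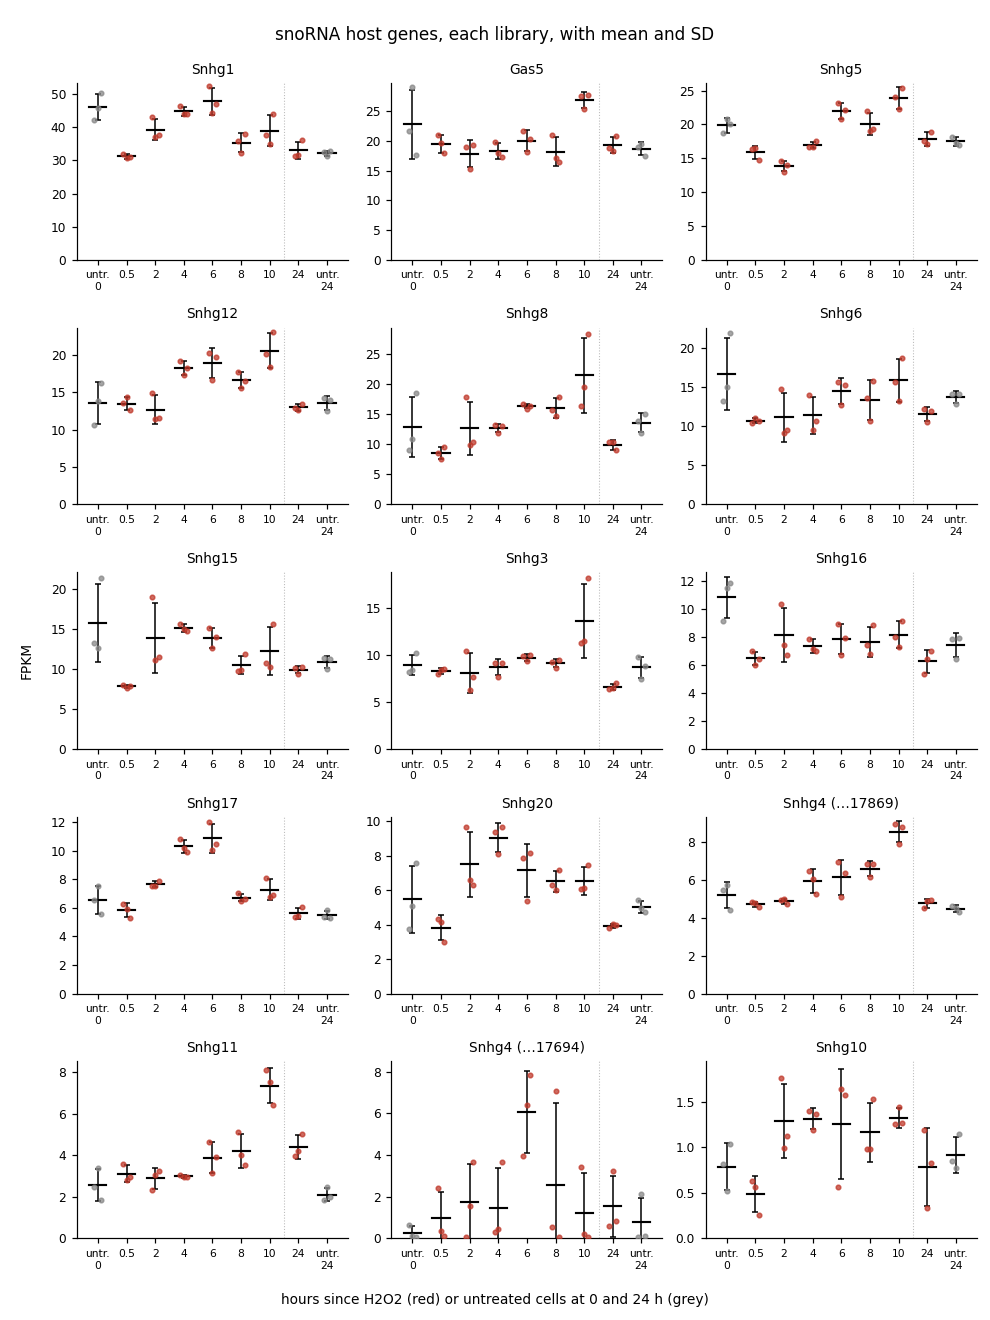
FPKM (vertical axis, from 0) of each host gene in every library (points, red for H2O2 and grey for untreated) with group mean and SD (bars, n = 3), by time in h (horizontal axis). The SD bars of the second Snhg4 entry are cut at 0. Snhg17 peaks at 4 h and 6 h, Snhg11 at 10 h, and Snhg1 is lower at 0.5 h and in both 24 h groups than in untreated cells at 0 h.

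Snhg1, Snhg16, Snhg15 and Snhg6 were lower. Snhg1 (ENSMUSG00000108414, chr19:8723475-8726443, plus strand), the most abundant host gene, was at 32.0, 30.6 and 31.2 FPKM at 0.5 h, against 42.2, 45.9 and 50.3 in untreated cells at 0 h. The groups did not overlap, and the change of -0.54 (SE 0.0882, limma adjusted p = 0.0083) was the 1 call among the members at the end of the exposure. It ended without H2O2 0.5 h replicate 2 or untreated 0 h replicate 3 alone and held without all 4 libraries. At 10 h the change of -0.24 (limma adjusted p = 0.0424) ended in the fits without any of 9 single libraries and was 0.0105 with both untreated groups as control. Snhg1 was back at 46.4, 44.1 and 43.9 FPKM at 4 h and 52.4, 44.3 and 47.0 at 6 h, overlapping the untreated range, and then at 35.8, 32.2 and 38.0 at 8 h, a change of -0.38 (limma adjusted p = 0.00182). The step from 6 h to 8 h was -0.43 (limma adjusted p = 0.000927). Untreated cells at 24 h were at 32.6, 31.3 and 32.8 FPKM, lower than untreated cells at 0 h by -0.50 (limma adjusted p = 0.00692), in a comparison where 0.426% of all genes were higher and 0.279% lower (0.705% called) and no other member was called. An unadjusted limma p below 0.05 was found in that comparison for 5 host genes and 3 small RNAs, against 1285 of all 13614 genes. Treated cells at 24 h, at 31.3, 31.8 and 36.1 FPKM, overlapped untreated cells of that time. The call between the untreated groups ended with only the libraries compared (limma adjusted p = 0.819). The cause of the lower levels of Snhg1 was not tested.

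Snhg16 (ENSMUSG00000020812, chr11:116671660-116675799, plus strand) was at 7.90, 7.16 and 7.002 FPKM at 4 h, against 9.18, 11.5 and 11.9 in untreated cells at 0 h, without overlap. Its change was -0.50, -0.42, -0.45 and -0.37 at 4, 6, 8 and 10 h (SE 0.137, limma adjusted p from 0.00901 to 0.0462), all of which were also called without the 4 libraries. The 4 h call also held without any single library, but ended with only the libraries compared (limma adjusted p = 0.0709). That at 6 h ended without H2O2 6 h replicate 2 or untreated 0 h replicate 2 or 3, that at 8 h without H2O2 8 h replicate 2 or untreated 0 h replicate 3, and that at 10 h without any of 15 libraries. Untreated cells at 24 h, with a mean of 7.41 FPKM, were likewise below those at 0 h, by -0.49, a difference that was not called with all libraries (limma adjusted p = 0.119) and was called without the 4. Snhg15 averaged 10.5 FPKM at 8 h, against 15.8 ± 4.89 in untreated cells at 0 h, a change of -0.51 (limma adjusted p = 0.0254) that was not called without H2O2 8 h replicate 1 or 2 or untreated 0 h replicate 3. At 0.5 h it was at 7.96, 7.61 and 7.84 FPKM, against 13.2, 12.7 and 21.4 in untreated cells at 0 h. That change of -0.89 was not called (limma adjusted p = 0.0629), and without the 4 libraries it was -0.66 and called. Snhg6 was lower at 4 h by -0.50 (limma adjusted p = 0.0457) with overlapping groups and was not called without the 4 libraries or without any of 17 single ones.

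A second Snhg4 entry, ENSMUSG00000117694, was called at 6 h, by 2.45 (SE 0.735, limma adjusted p = 0.0101). It was at 3.93, 6.38 and 7.83 FPKM at 6 h, against 0.632, 0.131 and 0.0626 in untreated cells at 0 h, but at 8 h its 3 libraries were at 0.555, 7.08 and 0.0641. GENCODE M21 lists this identifier as the protein-coding Gm28285, which overlaps the other Snhg4 entry and runs through Matr3. Fragments of these genes could be divided differently between libraries, so its level is uncertain. Snhg10, the lowest host gene, averaged between 0.483 and 1.33 FPKM in the 9 groups.

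Among small RNAs, Snora34, a box H/ACA RNA in an intron of Kansl2 (a subunit of the NSL histone acetyltransferase complex), changed most. It was at 0.566, 1.69 and 0.859 FPKM in untreated cells at 0 h. After exposure its 3 libraries were at 1.46, 3.14 and 2.16 FPKM at 0.5 h, 4.99, 2.52 and 8.04 at 2 h, 12.5, 11.4 and 13.3 at 4 h, 11.4, 4.90 and 9.85 at 6 h, 4.11, 4.02 and 3.52 at 8 h, and 3.97, 5.67 and 2.89 at 10 h. Every library from 2 h to 10 h was above every untreated 0 h one, with the highest group mean at 4 h. At 24 h the treated libraries, at 1.47, 2.72 and 1.86 FPKM, lay within those of untreated cells at 24 h, at 3.09, 1.09 and 2.16.

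The change of Snora34 was 1.53 at 2 h (SE 0.322, limma adjusted p = 0.0157), 2.75 at 4 h (adjusted p = 1.11e-06), 2.22 at 6 h (adjusted p = 8.72e-06), 1.30 at 8 h (adjusted p = 0.00294) and 1.35 at 10 h (adjusted p = 0.00301). At 24 h it was -0.01. The calls from 4 h to 10 h held without any single library and without the 4 libraries together, while the 2 h call ended without the 4, at 1.46 (limma adjusted p = 0.0695), and without any of H2O2 2 h replicate 1 or 3 or untreated 0 h replicate 1. With only the libraries compared the 2 h and 10 h calls ended, that at 10 h with a limma adjusted p = 0.0524. Both the rise from 2 h to 4 h, 1.22 (limma adjusted p = 0.00911), and the fall from 6 h to 8 h, -0.93 (limma adjusted p = 0.0403), were called between treated times, of which the second was not called without the 4 libraries. Kansl2 moved far less. It was at 23.2, 24.2 and 24.5 FPKM at 4 h and 28.0, 26.9 and 26.4 at 6 h, against 23.2, 22.6 and 16.9 in untreated cells at 0 h, and was called only at 6 h, by 0.37 (limma adjusted p = 0.00257). The difference between Snora34 and Kansl2 was not tested.

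The other small RNA of Kansl2, Snora2b, was not called at any time. It was at 1.27, 2.54 and 1.63 FPKM at 4 h, against 1.02, 1.78 and 0.462 in untreated cells at 0 h, a change of 0.45. The microRNA entry Mir1291, which overlaps Snora34 on the same strand, was at 3.51, 4.82 and 4.24 FPKM at 4 h, against 0.803, 1.80 and 0.692 in untreated cells at 0 h. Fragments of Snora34 and of Mir1291 cannot be told apart where the entries overlap.

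**Figure D4:**
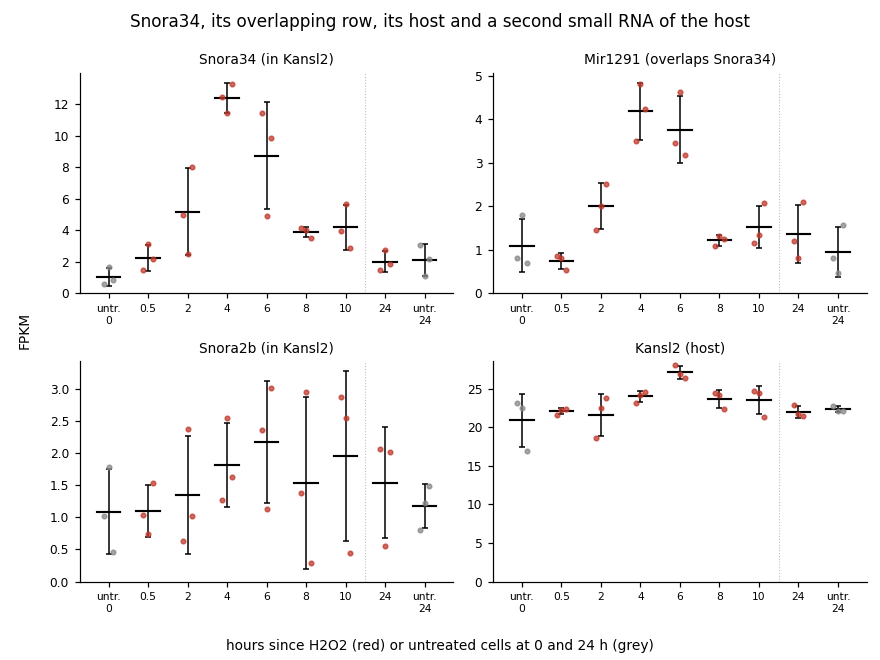
FPKM (vertical axis, from 0) of Snora34, of Mir1291, which overlaps it, of Snora2b and of the host gene Kansl2 in every library (points, red for H2O2 and grey for untreated) with group mean and SD (bars, n = 3), by time in h (horizontal axis). Snora34 lies between 11.4 and 13.3 FPKM at 4 h, above all untreated libraries, while Kansl2 stays between 16.9 and 28.0 FPKM over the groups shown.

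Of the box C/D RNAs with large called rises, Snord91a, Snord89 and Snord37 lay in host genes that were also called higher at 4 h and 6 h, and they are described here for that reason. Snord91a, in an intron of Tsr1 (a factor of small ribosomal subunit assembly; chr11:74905424-74905516, plus strand), was at 3.85, 4.84 and 4.34 FPKM at 4 h and 2.25, 3.07 and 3.96 at 6 h, against 0.693, 2.19 and 0.189 in untreated cells at 0 h. All 6 treated libraries were above the untreated 0 h ones. The change was 1.52 at 4 h (SE 0.286, limma adjusted p = 0.00034) and 1.12 at 6 h (limma adjusted p = 0.00317), held without any single library. Both calls ended with only the libraries compared (limma adjusted p = 0.0518 and 0.0817). Tsr1 was higher by 0.65 at 4 h, 0.77 at 6 h and 0.56 at 8 h (limma adjusted p = 0.0126, 0.00207 and 0.021).

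Snord89 (chr1:39548745-39548854, minus strand), in an intron of the non-coding Gm15832, was at 3.38, 4.55 and 2.44 FPKM at 4 h, against 0.548, 1.03 and 0.376 in untreated cells at 0 h, without overlap. Its change was 1.43 at 4 h (SE 0.288, limma adjusted p = 0.000683), 0.87 at 6 h and 0.97 at 10 h. The 4 h call held without any single library, and the others ended without untreated 0 h replicate 3, at 6 h also without H2O2 6 h replicate 3 and at 10 h without H2O2 10 h replicate 1. Gm15832 was higher by 0.35, 0.49, 0.50 and 0.55 at 4, 6, 8 and 10 h, all called. Its level was low, with group means from 0.445 FPKM at 2 h to 1.38 at 10 h. No untreated, 0.5 h or 2 h library reached 1 FPKM, the highest of these being 0.831 in untreated cells at 0 h. Gm15832 was therefore tested only through treated libraries from 4 h on, and its rises are not independent of the level filter. Snord37, in an intron of Eef2, the gene of the translation elongation factor that moves the ribosome along (chr10:81178950-81179013, plus strand), was at 3.22, 4.03 and 3.98 FPKM at 4 h and 3.70, 4.05 and 3.35 at 6 h, against 2.25, 1.58 and 0.144 in untreated cells at 0 h. The groups did not overlap, and the changes were 1.15 and 1.14 (SE 0.354, limma adjusted p = 0.0182 and 0.0125). Both calls ended without untreated 0 h replicate 3 alone, at 4 h also without H2O2 4 h replicate 2 or 3. They held without the 4 libraries, at 0.71 and 0.70. Eef2 itself was at 919, 928 and 920 FPKM at 4 h, against 678, 719 and 578 in untreated cells at 0 h, and was called at 4, 6, 8 and 10 h by 0.49, 0.59, 0.43 and 0.25.

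Other rises of small RNAs did not all hold without the libraries that stand apart. Snora17 was higher by 0.83, 0.76 and 0.81 at 6, 8 and 10 h and Snord88c by 0.79 and 0.81 at 4 h and 10 h, all called. Untreated 0 h replicate 3 read 0.492 FPKM for Snora17, against 2.07 and 2.64 in the other 2 libraries of that group, and 1.38 for Snord88c, against 5.09 and 3.66. None of these 5 calls held without the 4 libraries or without untreated 0 h replicate 3 alone. Those of Snora17 also ended without H2O2 6 h replicate 2, H2O2 8 h replicate 1 or 2 and H2O2 10 h replicate 1, each at its own time, and the 4 h call of Snord88c without H2O2 4 h replicate 1. Snora23 in Ipo7 was at 1.22, 1.16 and 1.51 FPKM at 6 h, against 0.308, 0.844 and 0.144 in untreated cells at 0 h, without overlap, and was called higher at 6 h by 0.71 and at 8 h by 0.68. Snord11 in Nop58 was called higher at 6 h by 0.75, but of the 4 libraries at 1 FPKM or more that admitted it 2 were of 6 h, so its rise there and its membership are not independent. Snord83b in Rpl3 was called lower at 8 h by -0.75. These 3 members were named after their values were seen. The calls of Snora23 and Snord83b held without the 4 libraries, though not without untreated 0 h replicate 3 alone, and that of Snord11 ended. Snord7, in AA465934, was at 8.61, 2.65 and 4.98 FPKM at 6 h, against 2.14, 1.20 and 3.16 in untreated cells at 0 h, a change of 0.95 (SE 0.336, limma adjusted p = 0.0263) with 1 of 3 treated libraries inside the untreated range. This call ended without H2O2 6 h replicate 1 or 3 or untreated 0 h replicate 2. AA465934 changed by 0.14 at 6 h and was not called. The 2 scaRNAs, Scarna13 in Snhg10 and Scarna8, were not called at any time and ran from 0.142 to 1.94 FPKM and from 0.00292 to 1.47 FPKM over the 27 libraries.

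Of the small RNAs that fell, Snord49a and Snord87 did so at the most times. Snord49a (chr11:62603450-62603521, plus strand) was at 11.3, 13.3 and 11.3 FPKM in the untreated 0 h group, 7.40, 8.60 and 7.85 at 0.5 h, 3.19, 5.54 and 3.69 at 2 h, 5.72, 6.56 and 5.04 at 4 h, 10.2, 5.63 and 7.67 at 6 h, 9.20, 5.43 and 6.52 at 8 h, and 11.2, 14.3 and 10.4 at 10 h. All libraries from 0.5 h to 8 h were below every untreated 0 h one, and at 10 h the groups overlapped again. The change was -1.36 at 2 h (SE 0.183, limma adjusted p = 0.000181), -0.94 at 4 h (adjusted p = 0.000488), -0.58 at 6 h (adjusted p = 0.014), -0.71 at 8 h (adjusted p = 0.00386) and 0.00 at 10 h, and all 4 calls held without the 4 libraries. The 6 h call ended without H2O2 6 h replicate 2 or untreated 0 h replicate 2. With only the libraries compared, the 4 h call of Snord49a alone held. Its host 2410006H16Rik was at 107, 104 and 106 FPKM at 6 h, against 62.1, 62.3 and 105 in untreated cells at 0 h, and was called higher at 6 h by 0.51 (limma adjusted p = 0.041) and at 8 h by 0.58 (limma adjusted p = 0.0205). The small RNA and the RNA of its host gene thus had opposite signs at these times, a difference that was not tested itself.

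The neighbours of Snord49a in the same host were named after their values were seen. Snord49b was called lower at 4 h and 8 h, by -0.60 and -0.54 (limma adjusted p = 0.0176 and 0.0227), calls that ended without the 4 libraries, and Snord65 was not called at any time. Snord87, in an intron of Snhg6 (chr1:9942463-9942549, minus strand), was at 2.69, 1.72 and 1.87 FPKM at 4 h and 2.53, 2.57 and 2.21 at 8 h, against 5.23, 5.43 and 10.3 in untreated cells at 0 h. Both groups lay below every untreated 0 h library. The change was -1.21 at 2 h, -1.32 at 4 h (SE 0.274, limma adjusted p = 0.000867), -0.71 at 6 h, -1.16 at 8 h (limma adjusted p = 0.00196) and -0.74 at 10 h. Without the 4 libraries the calls at 4 h and 8 h held, at -1.05 and -0.83, and those at 2, 6 and 10 h ended, as they did without untreated 0 h replicate 3 alone. The 2 h call also ended without H2O2 2 h replicate 2, and those at 6 h and 10 h without any of 7 and 16 single libraries. Snhg6 changed by -0.54, -0.50, -0.16, -0.29 and -0.05 at these times and was called at 4 h.

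**Figure D5:**
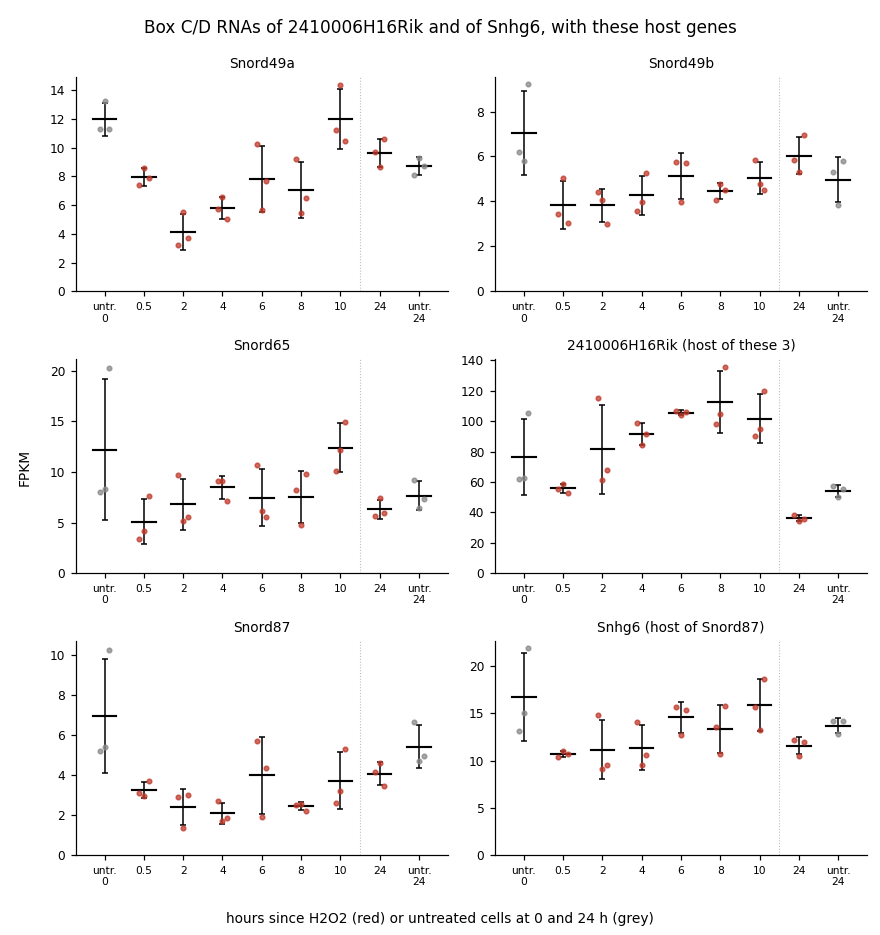
FPKM (vertical axis, from 0) of Snord49a, Snord49b, Snord65 and their host 2410006H16Rik, and of Snord87 and its host Snhg6, in every library (points, red for H2O2 and grey for untreated) with group mean and SD (bars, n = 3), by time in h (horizontal axis). Snord49a is lowest at 2 h, at 3.19 to 5.54 FPKM, and overlaps untreated cells again at 10 h, while 2410006H16Rik has its highest treated library, 136 FPKM, at 8 h.

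Snora62, a box H/ACA RNA in Rpsa, the gene of a small-subunit ribosomal protein, was at 0.364, 0.571 and 0.599 FPKM at 8 h, against 1.82, 1.77 and 2.37 in untreated cells at 0 h, without overlap. The change of -0.98 (SE 0.293, limma adjusted p = 0.0107) held without any single library, and Rpsa was not called at that time. The highest small RNAs were Snord34, Snord32a and Snord35a, all box C/D RNAs in introns of Rpl13a, the gene of a large-subunit ribosomal protein, with means of 16.2, 12.6 and 12.1 FPKM over the 27 libraries, and Snora31 in Tpt1, with 11.96. Snord34 was called lower at 4, 8 and 10 h, by -0.47, -0.58 and -0.50. Its control libraries read 14.9, 22.2 and 30.0 FPKM, against 13.4, 13.4 and 15.5 at 8 h, so that the groups overlapped. The 8 h call alone held without the 4 libraries, and all 3 ended without untreated 0 h replicate 3, those at 4 h and 10 h also without untreated 0 h replicate 2, H2O2 4 h replicate 2 or 3 and H2O2 10 h replicate 1 or 2, each at its own time. Snord32a and Snord35a were not called at any time with all libraries and no replicate block, and with a replicate block within untreated 0 h, H2O2 8 h and H2O2 10 h Snord35a was lower at 8 h by -0.60 (limma adjusted p = 0.0417). Snora31 was at 4.38, 4.53 and 2.85 FPKM at 0.5 h, against 9.55, 9.69 and 15.5 in untreated cells at 0 h. That change of -1.34 did not pass (limma adjusted p = 0.0949) although the groups did not overlap, which also held for 4.41% of all genes in that direction. From 0.5 h to 2 h Snora31 rose by 1.24 (limma adjusted p = 0.0449), a step that was not called without the 4 libraries.

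Host and small RNA could be set side by side in 40 pairs with both tested, which include pairs that share a host. Their changes had the same sign in 34, 19, 26, 22, 26, 25 and 20 of 40 pairs at 0.5, 2, 4, 6, 8, 10 and 24 h. Both were called in 5 pairs at 4 h, 6 at 6 h, 2 at 8 h and 2 at 10 h, against the shares of all genes given above. They went in the same direction in 5, 4, 0 and 2 of these and in opposite directions in 2 at 6 h (Snord49a and Snord11) and 2 at 8 h (Snord49a and Snord49b). Snord89 with Gm15832 is among those in the same direction at 4, 6 and 10 h, with the limit on Gm15832 given above. The small RNA alone was called in 3, 4, 3, 6 and 3 pairs at 2, 4, 6, 8 and 10 h, and the host alone in 5, 11, 9 and 4 pairs at 4, 6, 8 and 10 h and in 6 at 24 h.

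Genes for the proteins that bind, assemble and process these RNAs were described by list. Of the 4 box C/D proteins, 0 were higher and 1 was lower at 4 h, 3 were lower at each of 6, 8 and 10 h, and 0 were called by limma at 24 h. An unadjusted limma p below 0.05 at 24 h was found for 2 of them, against 4307 of all 13614 genes. The shares of all genes called higher and lower were 22.3% and 20% at 6 h, 29.2% and 11.6% at 8 h and 22.2% and 9.43% at 10 h, and the counts of these short lists are to be read against them. Of the box C/D proteins 3, 4, 4 and 3 were lower at 6, 8, 10 and 24 h without the 4 libraries, where 56.1%, 48.3%, 39.8% and 51.3% of all genes were called. Nop56, a core protein of the particle, was at 98.6, 91.1 and 93.7 FPKM at 6 h, against 119, 122 and 131 in untreated cells at 0 h, without overlap. Its change at 6 h was -0.39 (SE 0.0586, limma adjusted p = 1.37e-05), that of Snu13, which binds the kink of the C and D boxes, -0.38, and that of Nop58, the partner of Nop56, -0.36, which was not called without untreated 0 h replicate 1. With only the libraries compared, Snu13 and Nop58 were not called. Of the 4 box H/ACA proteins limma called 0 at 4 h and 6 h, and 1 was lower at 8 h (Dkc1, dyskerin, by -0.37) and 1 at 10 h (Nop10 by -0.68). An unadjusted limma p below 0.05 was found for 0 and 1 of them at 4 h and 6 h, against 4739 and 6668 of all 13614 genes. The call of Dkc1 ended without any of 22 single libraries and that of Nop10 without H2O2 10 h replicate 1 or 2 or untreated 0 h replicate 3. Of these 4, 2 were higher at 4 h and 2, 2, 3 and 3 were lower at 6, 8, 10 and 24 h without the 4 libraries. Of 10 assembly factors, 0 were higher and 5 lower at 6 h, among them Shq1, a chaperone of dyskerin, by -0.53, Znhit3 by -0.42 and Znhit6 by -0.41, factors of box C/D assembly. Pih1d1, lower by -0.49, was not called without the 4 libraries or without any of 19 single ones.

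The Cajal body list was divided, with 2 of 4 higher and 1 lower at 6 h, also without the 4 libraries. Wrap53, whose protein brings scaRNAs and telomerase RNA to Cajal bodies, was at 33.4, 34.6 and 35.6 FPKM at 6 h, against 13.1, 13.99 and 16.3 in untreated cells at 0 h. Its change was 0.55 at 4 h, 1.21 at 6 h (SE 0.0841, limma adjusted p = 2.14e-10) and 0.71 at 8 h. Wrap53 overlaps Trp53 on the opposite strand and the strand setting of the authors' counting is not given in the sources used here, so its reads and those of Trp53 may be mixed. Trp53 was at 89.3, 98.1 and 92.2 FPKM at 6 h, against 99.3, 103 and 137 in untreated cells at 0 h. Tert, the telomerase protein, was higher at 6 h by 0.96 and at 24 h by 0.88, and Coil, which builds Cajal bodies, lower at 6 h by -0.34, a call that ended with only the libraries compared (limma adjusted p = 0.0684). Of 17 genes of nonsense-mediated decay, 5 were higher and 1 lower at 6 h and 7 higher and 2 lower at 8 h, so that 6 of 17 and 9 of 17 were called, against 42.3% and 40.7% of all genes. The fit without the 4 libraries had 7 higher and 2 lower at 6 h and 8 higher and 4 lower at 8 h. Upf2, Smg6, Upf1 and Smg5, core factors of that pathway, had the largest changes at 6 h, 0.89, 0.67, 0.66 and 0.62, of which Upf2 and Upf1 were not called with only the libraries compared (limma adjusted p = 0.0653 and 0.0781). Of 20 genes of the exosome and of 3′ trimming, 1 was higher and 6 were lower at 6 h, fewer in all than the 42.3% of all genes called, and without the 4 libraries 1 was higher and 9 were lower. Exosc4, Exosc5 and Exosc7, exosome subunits, were lower by -0.80, -0.65 and -0.65, of which Exosc5 was not called without untreated 0 h replicate 3 or any library of H2O2 6 h and neither Exosc4 nor Exosc5 with only the libraries compared, and Parn, a poly(A)-specific ribonuclease that trims box H/ACA RNAs in human cells, was higher by 0.64.

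At 24 h few members were called against untreated cells of the same age in the fit over all libraries. With only the 24 h libraries in the fit more members were called, as was a larger share of all genes, both given in the last section. Beside Snhg11, no host gene and no small RNA was called with all libraries. Without the 4 libraries, of which none is in the 24 h groups, 3 host genes and 4 small RNAs were called, against 51.3% of all genes. Snhg8 and Snhg3 were the lower host genes, by -0.42 and -0.34. The 24 h controls carried the hepatocyte genes given above and the treated 24 h libraries did not, at 4.65 to 4.81 FPKM in treated and 57.8 to 79.2 FPKM in untreated cells at 24 h, and their part in the 24 h values was not tested. The difference between the 24 h and the 6 h effect was called for 2 host genes and 3 small RNAs, against 25.4% of all genes, and without the 4 libraries for 7 and 5, against 55.2%. Between the 2 untreated groups (24 h minus 0 h) the fit without the 4 called 7 host genes and 3 small RNAs, against 30.1% of all genes. In the authors' deposited tables, 1, 0, 0, 1, 0, 1 and 1 host genes and 0, 0, 1, 1, 0, 0 and 0 small RNAs carry the mark of significance at 0.5, 2, 4, 6, 8, 10 and 24 h, against 0.415%, 0.229%, 3.27%, 6.58%, 3.69%, 2.44% and 2.27% of all 38352 genes in these tables.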

How the data were processed

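Poly(A) RNA was measured in 27 libraries, 9 groups of 3 biological replicates. Per the submitters' processing notes, the build was mm10 and the tools include HISAT2, StringTie, edgeR, cutadapt and FastQC. No version, annotation release or strand setting is given in the sources used here. There are 7 deposited tables (1 per treated time), and per the file headers they hold FPKM for each library. The deposited tables also hold the authors' own fold (a ratio), log2 change, p-value, q-value and mark of significance, of which only the mark was counted.

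Tables were joined by Ensembl identifier, and 0 of 15 repeated columns differed. FPKM as deposited was converted to log2(FPKM + 1), a gene was tested if 3 libraries or more held it at 1 FPKM or above, and limma 3.58.1 in R 4.3.3 was fitted with a mean-variance trend to all 27 libraries, 1 mean per group. In each comparison the Benjamini-Hochberg adjustment ran over 13614 genes. The fitting code was tested on simulated data. The number of reads is unknown, so precision rests on the replicates, and no interval from counts is given.

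Same-number libraries deviated together from their group means at 8 h (correlations 0.464, 0.464 and 0.691 with untreated 0 h) and at 10 h (0.558, 0.566 and 0.797). In no other comparison did this hold for all 3 numbers. The labels give no pairing. Replicate 3 of untreated 0 h, H2O2 8 h and H2O2 10 h is in each case a library that stands apart. These correlations therefore cannot tell a pairing of libraries from a shared departure of replicate 3. A replicate block within these groups was added after the data were seen.

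The members and lists were chosen with earlier results of these data known. All host genes are named, the 4 small RNAs with the highest mean, the 10 with the largest called change, and up to 4 called genes of each partner list in a comparison described. Steps between treated times were added after the data were seen. Alternatives were a pseudocount of 0.1, no filter or one of 5 FPKM, median-of-ratios scaling, a replicate block, only the libraries compared, both untreated groups as control, each library left out in turn, and the 4 libraries that stand apart left out. Positions, hosts and sequences came from GENCODE M21 on GRCm38; the host of a small RNA is the gene with the highest mean FPKM around it on its strand.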

Additional observations from a re-analysis of the deposited data

Results flagged for a closer look

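The effect at 24 h, measured against untreated cells at 24 h, differed from that at 6 h, measured against untreated cells at 0 h, for 5 members by the test of the difference itself in the limma model. The difference, 24 h effect minus 6 h effect, was -0.63 for Snhg17 (SE 0.123, limma adjusted p = 0.000611) and -0.52 for Snhg12 (SE 0.169, limma adjusted p = 0.0271). It was -2.23 for Snora34 (SE 0.456, limma adjusted p = 0.000901) and -1.46 for Snord7 (SE 0.475, limma adjusted p = 0.0274). For Snord49a it was 0.71 (SE 0.259, limma adjusted p = 0.048). The first 4 were called higher at 6 h and were not called at 24 h, and Snord49a was called lower at 6 h and was not called at 24 h, each against its own control. The untreated 24 h libraries carried the hepatocyte genes and those of 0 h did not, and their part in these differences was not tested. Without the 4 libraries that stand apart the differences were -0.54, -0.66, -2.19, -1.68 and 0.75 for Snhg17, Snhg12, Snora34, Snord7 and Snord49a, all called by limma.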

How the results depend on the processing

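Among members named by the rule, 8093 alternative values were computed, for calls and for values not called alike. Of these, 7770 stayed on the same side of the threshold, 218 lost the call, 102 gained it and 3 reversed. A change of sign was counted as a reversal only where the value was called in at least 1 of the fits. Values called in neither fit were not checked for direction. The reversals were Snhg15 at 4 h, 0.21 without the 4 libraries that stand apart, and Snhg1 with both untreated groups as control, 0.21 at 4 h and 0.0105 at 10 h. Of 59 calls of named members, 27 held without any single library, 32 ended without at least 1, and 24 ended without untreated 0 h replicate 3. For the partner genes named, 636 of 701 alternative values kept the call, 65 lost it and 0 reversed. Counts below are of members called in either direction. Without the 4 libraries, host genes numbered 3 at 0.5 h, 3 at 2 h, 8 at 6 h, 8 at 8 h, 3 at 24 h and 7 between untreated groups, small RNAs 2 at 10 h, 4 at 24 h and 3 between untreated groups, and the 24 h minus 6 h effect 12, against 5 with all libraries. With only the libraries compared, host genes numbered 0, 0, 1, 2, 0, 1 and 4 at 0.5 to 24 h and 0 between untreated groups, and small RNAs 0, 4, 3, 3, 0 and 7 at 2 to 24 h, while the share of all genes called was 0.11%, 0.022%, 7.79%, 19.9%, 11.3%, 3.56% and 35.9% at 0.5 to 24 h. With both untreated groups as control, host genes numbered 0 at 0.5 h, 2 at 2 h, 8 at 6 h, 3 at 8 h and 2 at 24 h, and small RNAs 1 at 24 h, against 0.191%, 2.21%, 48.1%, 46.3% and 19% of all genes at these 5 times. Without a filter, small RNAs numbered 6 at 6 h, 5 at 8 h and 3 at 10 h, against 18.8%, 16.3% and 13% of all genes, and the 24 h minus 6 h effect 2, and with a filter of 5 FPKM small RNAs numbered 3 at 6 h, where fewer were tested. Median-of-ratios scaling, with factors from 0.856 to 1.11, left 5 host genes at 10 h, against 30.5% of all genes. A pseudocount of 0.1 gave 2 host genes at 0.5 h. A replicate block over all libraries gave 2 host genes at 0.5 h and moved no other count by over 1.5 times. All 3 same-number correlations were above 0.1 only at 8 h and 10 h, and elsewhere 5 of 18 were. Replicate 3 of untreated 0 h, H2O2 8 h and H2O2 10 h is in each case a library that stands apart, so a pairing cannot be told from that. A replicate block within untreated 0 h, H2O2 8 h and H2O2 10 h, chosen after seeing the data, gave 6 host genes and 13 small RNAs at 8 h and 9 and 8 at 10 h. It ended no call of a named gene and added Snhg12 (0.29), Snord37 (0.83) and Snord35a (-0.60) at 8 h and Snhg15 (-0.33) and Snord91a (0.68) at 10 h, and changed no other call of a named gene. Leaving out each library in turn gave 0 to 3, 1 to 3, 4 to 6, 5 to 6, 3 to 6, 6 to 8 and 1 to 1 host genes at 0.5, 2, 4, 6, 8, 10 and 24 h, and 1 between untreated groups. It gave 0 to 1, 2 to 4, 5 to 11, 4 to 14, 5 to 12, 1 to 7 and 0 to 1 small RNAs at these times, 0 to 1 between untreated groups and 2 to 9 for the 24 h minus 6 h effect. The lowest small RNA counts at 4, 6 and 10 h came without untreated 0 h replicate 3 and that at 8 h without H2O2 8 h replicate 1. No share of all genes is given for the replicate blocks, the pseudocount, the filter of 5 FPKM and the fits without 1 library. Their counts therefore cannot be told from a general change in the number of genes called. The cause of these changes was not tested.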
